A study of Mus musculus with 12 samples.

Results

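Ependymal cells line the ventricles of the brain and carry tufts of motile cilia that move cerebrospinal fluid. The genes described here are 47 ependymal and motile cilia genes, taken from a fixed list of names, and 41 of them could be measured among 26495 genes in all. A gene counted as measured when some probe under its name exceeded background clearly in the whole of 1 group (3 arrays), and of several such probes the brightest on average was used. Ccdc153, another ciliary gene, was left out because it lies near Il18. Total RNA of whole brain had been hybridised to 1-colour Agilent arrays, and each of the 12 arrays holds a sample labelled as a biological replicate. All mice were of the BALB/c strain and untreated. The mice were either wild type or knockout for interleukin-18, a cytokine, at 6 or 12 weeks of age, which gave 4 groups of 3. The labels name no promoter or cell type that would limit the knockout. The design poses the question of how these genes differ between genotypes at each age and between ages in each genotype.

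A motile cilium is built on an axoneme of outer doublet microtubules around a central pair. Dynein arms on the doublets make the force, radial spokes and the central pair regulate it, and nexin links hold neighbouring doublets together. Foxj1 is the transcription factor that switches on this programme in ependymal cells, and the RFX factors, which bind a DNA element called the X-box, act with it. Few cells of a whole brain are ependymal, so these genes are read against the RNA of all other cells. In bulk tissue, fewer ciliated cells and less RNA per ciliated cell cannot be told apart.

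Promoters are shown because the genes are thought to share this control. Of the 8 printed, 7 belong to genes called in a test described below and the other is that of Kif9, and they were picked after those results were seen. The promoter table of RefSeq (build GRCm38.p6) held 250 bases before and 50 after the start for 32 of the 41 measured genes, 2 of them through a synonym, with 36 promoters in all. The X-box half-site GTTGCC, searched on both strands, lay in 20 of the 32 genes, against 14.1% of the 27025 genes in the table. It lay in 61.1% of the 36 promoters and in 12.5% of all 32851 promoters of that length. The full X-box, a longer inverted repeat, lay in 4 of the 32 genes (Kif9, Spag6, Tekt4 and Zmynd10) against 1.49% of all genes, and it can contain the half-site. The forkhead core TGTTTAC lay in 2 of the 32, Ak7 and Mlf1, against 4.05% of all genes. A match is a description of letters and not a binding site. The 100 bases before the start of 8 genes are given 5′ to 3′ on the gene's own strand, with matches to either X-box form in capitals.
Tekt1, chr11:72361883-72361982, minus strand: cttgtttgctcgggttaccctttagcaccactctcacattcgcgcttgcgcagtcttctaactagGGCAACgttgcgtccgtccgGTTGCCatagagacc
Mns1, chr9:72438429-72438528, plus strand: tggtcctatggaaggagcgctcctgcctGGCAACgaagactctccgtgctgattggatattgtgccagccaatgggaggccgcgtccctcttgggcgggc
Lrrc23, chr6:124779728-124779827, minus strand: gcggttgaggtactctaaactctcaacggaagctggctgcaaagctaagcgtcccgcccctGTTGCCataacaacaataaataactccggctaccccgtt
Enkur, chr2:21205366-21205465, minus strand: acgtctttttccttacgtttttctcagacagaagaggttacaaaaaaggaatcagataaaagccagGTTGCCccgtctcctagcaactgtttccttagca
Fank1, chr7:133776791-133776890, plus strand: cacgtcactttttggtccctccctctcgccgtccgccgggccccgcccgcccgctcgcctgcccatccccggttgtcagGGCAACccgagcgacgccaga
Kif9, chr9:110476894-110476993, plus strand: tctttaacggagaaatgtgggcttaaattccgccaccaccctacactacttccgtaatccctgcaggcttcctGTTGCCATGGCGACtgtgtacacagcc
Dnali1, chr4:125065658-125065757, minus strand: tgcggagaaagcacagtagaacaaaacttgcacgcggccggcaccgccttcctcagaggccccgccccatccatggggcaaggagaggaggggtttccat
Tmem212, chr3:27896369-27896468, minus strand: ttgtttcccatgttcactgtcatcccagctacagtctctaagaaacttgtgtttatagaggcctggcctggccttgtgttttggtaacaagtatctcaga
Tekt1, shown at the first of its 2 annotated starts, held 2 half-sites in this stretch. Dnali1 and Tmem212 held neither form in the 300 bases of the table. Kif9 is shown at the second of its 2 starts, where the half-site overlaps a full X-box read on the other strand.

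The 12 arrays lay on 2 slides, per the barcodes in the file headers. Slide 1 carried every wild-type array and knockout replicates 1 and 2 at 6 weeks, and slide 2 carried knockout replicate 3 at 6 weeks and every knockout array at 12 weeks. Genotype at 12 weeks and slide therefore cannot be told apart, and the slide block given below rests on the split of the 6-week knockout group. By the same barcodes, slide column 2 held every 6-week wild-type array and wild-type replicate 1 at 12 weeks. Column 1 held all others. Genotype at 6 weeks and slide column therefore cannot be told apart, and age in wild type is partly mixed with column. The column block rests on the split of the 12-week wild-type group. The knockout minus wild type difference of Il18 itself was -1.84 at 6 weeks and -1.94 at 12 weeks on the log2 scale (limma, adjusted p = 2.3e-05 and 1.2e-05), with the groups apart at both ages. Between 65.9% and 76.2% of an array's spots were well above background. The labels give neither litters nor cages, so the p-values measure the spread between these samples.

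Nearly all of the genes were above background on every array. Values are log2 of the signal relative to the 75th percentile of the same array, so that 0 is that percentile, and levels of different probes are not compared. Of the 41 genes, 39 were above background on all 12 arrays, while Rfx2 was above it on 11 and Ak7 on 9. Spag16 and Spag17, proteins of the central pair, had only probes too dim to keep. Dnah5, Dnah9, Dnah11 and Dnah12, which are dynein heavy chains, had no probe by these names. The spread over arrays was small, with a median range of 0.61 over the 12 arrays. It was under 1 for 34 of the 41 genes, and the median SD within a group was 0.11. The widest range was 2.20, for the kinesin Kif27.

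Foxj1, the defining marker of these cells, was above background on every array. Its probe lies at chr11:116192214-116192273 (build mm9, minus strand). It read -0.30, -0.32 and -0.15 in wild type at 6 weeks and -0.16, -0.22 and -0.22 at 12 weeks. In the knockout it read -0.32, -0.47 and -0.34 at 6 weeks and -0.55, -0.07 and -0.20 at 12 weeks. The 4 groups overlapped, and the 12-week knockout group held both the lowest and the highest array. The knockout minus wild type difference was -0.12 at 6 weeks (95% interval -0.37 to 0.13) and -0.08 at 12 weeks (-0.33 to 0.18). The change with age was 0.06 in wild type (-0.19 to 0.31) and 0.10 in the knockout (-0.15 to 0.35). None of the 4 passed the test (limma, adjusted p from 0.585 to 0.869). The 12-week genotype difference was 0.06 without knockout replicate 1. Under median scaling it was 0.04, where the median of all genes moved from 0.02 to 0.14, so that Foxj1 moved with all genes.

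**Figure D1:**
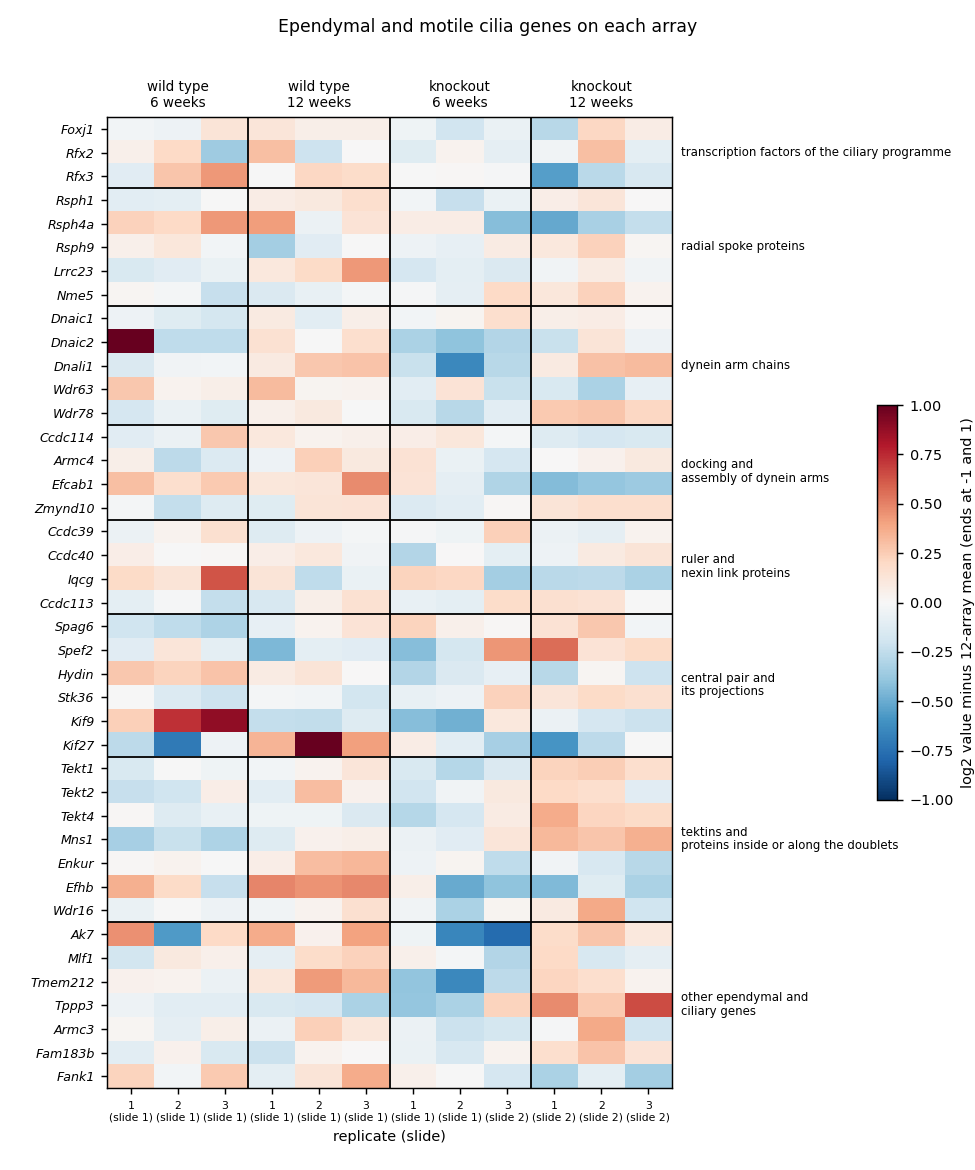
Each row is 1 of the 41 genes, ordered by role, and each column is 1 array, labelled by replicate and slide. Colour gives the log2 value minus the gene's mean over the 12 arrays. Most cells are pale, and deep cells include Dnaic2 on wild-type replicate 1 at 6 weeks, Kif27 on wild-type replicate 2 at 12 weeks, Kif9 on wild-type replicates 2 and 3 at 6 weeks and Ak7 on knockout replicate 3 at 6 weeks.

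At 6 weeks, none of the 41 genes differed between knockout and wild type after adjustment, whereas 0.925% of all genes did (limma, adjusted p under 0.05), 0.547% higher and 0.377% lower. An unadjusted p under that level was seen for 10 of the 41, beside 4905 of all 26495 genes. The changes leaned slightly down: 28 were below 0 and 13 above, with a median of -0.07 against 0.04 over all genes tested. Under median scaling both medians moved up, to 0.03 and 0.13, so the lean is relative to other genes and its sign depends on the scaling. All 3 arrays of each group lay apart for 7 genes that were lower in the knockout and 3 that were higher, against 8.33% and 15.3% of all genes (23.7% in either direction).

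The clearest differences at 6 weeks concerned Kif9 and Hydin, both of the central pair apparatus, and Tmem212, a membrane protein used as an ependymal marker. Hydin read -1.98, -2.03 and -1.96 in wild type and -2.54, -2.39 and -2.33 in the knockout, a difference of -0.43 ± 0.09 (SE, 3 arrays per group; limma, adjusted p = 0.0536). Tmem212 read -1.22, -1.23 and -1.32 in wild type and -1.66, -1.91 and -1.53 in the knockout, a difference of -0.44 (adjusted p = 0.0938, limma). Spag6, a central pair protein, went the other way, with -1.20, -1.26 and -1.31 in wild type and -0.78, -0.95 and -0.99 in the knockout (0.35, adjusted p = 0.106, limma). The groups did not overlap in any of these 3 genes, but none passed the threshold. With normexp background correction Hydin, Kif9 and Spag6 did pass, and with only probes above background on 12 arrays Hydin and Kif9 did. The Spag6 probe lies on chromosome 16, where the annotation lists Spag6l, and similar copies of this gene may share signal.

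Kif9, a kinesin of the central pair, had 4 probes above background, and they did not give one pattern. The probe used read -2.41, -1.91 and -1.76 in wild type at 6 weeks, and between -3.13 and -2.54 on the other 9 arrays. A second probe read -2.35, -1.81 and -1.75 on those 3 arrays and between -3.27 and -2.85 elsewhere. Both probes were higher on each 6-week wild-type array than on any other array. The knockout minus wild type difference at 6 weeks was -0.89 ± 0.18 for the first (adjusted p = 0.0535, limma) and -1.11 ± 0.16 for the second (adjusted p = 0.0159, limma fit over all probes). The wild-type change with age was -0.82 and -1.06 for the same probes (adjusted p = 0.0746 in the fit over genes and 0.0264 in that over probes, limma).

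The other 2 Kif9 probes read differently. Their 6-week genotype differences were -0.00 and -0.20, and their changes with age in wild type were 0.31 and 0.22, none of which passed the test. At 12 weeks they gave -0.40 and -0.45 between genotypes (adjusted p = 0.0455 and 0.0509, limma fit over all probes). The first and second probes lie at chr9:110426821-110426880 and chr9:110426274-110426333 (build mm9), and the third lies at chr9:110421590-110421649. Kif9 lies 60.0 Mb from the Il18 probe on the same chromosome, and the nearest measured member there is Mns1, at 21.9 Mb. With slide as a block the first probe passed at 6 weeks (-1.07, adjusted p = 0.0302, limma), beside 0.498% of all genes, and with age in wild type (-0.82, adjusted p = 0.0344), beside 1.49% of all genes. Without wild-type replicate 1 at 6 weeks it passed in both comparisons (-1.08 and -1.01, adjusted p = 0.0286 and 0.0403, limma). Without knockout replicate 3 at 6 weeks it passed between genotypes (-1.07), when 0.245% of all genes were called higher and 0.253% lower. It did not pass in the fit within slides (adjusted p = 0.0834 at 6 weeks and 0.0820 with age, limma) or with slide column as a block (0.565 and 0.269).

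**Figure D2:**
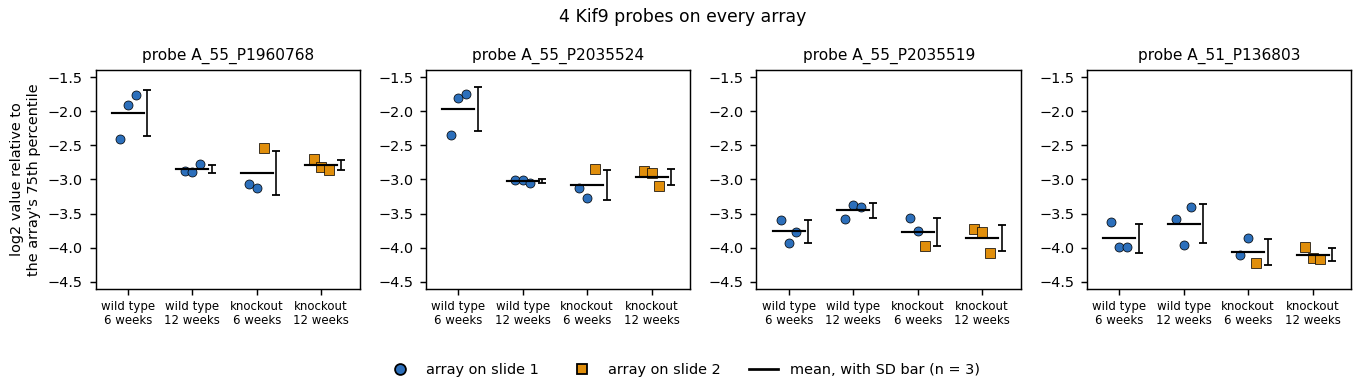
Each panel is 1 Kif9 probe, with the log2 value relative to the array's 75th percentile on the vertical axis and the 4 groups along the bottom. Circles are arrays of slide 1, squares are arrays of slide 2, and lines and bars are the mean and SD of 3 arrays. The panels of the probe used and of the second probe show the 6-week wild-type arrays above all others, and the panels of the other probes do not.

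At 12 weeks, 12 of the 41 genes differed between genotypes, 4 higher and 8 lower in the knockout. This was 29.3% of the genes, near the 33.0% of all genes that passed (18.5% higher and 14.5% lower), so the count is not a result about these genes. The higher ones were Tppp3, Mns1, Tekt4 and Wdr78. The lower ones were Kif27, Efhb, Efcab1, Rsph4a, Rfx3, Enkur, Fank1 and Lrrc23. The median change was -0.00, beside 0.02 over all genes, and 20 changes were positive and 21 negative. The 3 arrays of each group lay apart for 10 genes upward and 10 downward, against 29.2% and 23.1% of all genes (52.3% in either direction).

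Among the genes higher in the 12-week knockout, Tppp3, a tubulin-binding protein abundant in ciliated cells, read 1.62, 1.60 and 1.45 in wild type and 2.25, 2.03 and 2.42 in the knockout. The difference was 0.67 ± 0.15 (adjusted p = 0.0107, limma). Mns1, a protein inside the doublets, read -2.07, -1.90 and -1.89 against -1.62, -1.67 and -1.59 (0.33 ± 0.08, adjusted p = 0.0140, limma). In both genes every knockout array was above every wild-type array, and so it was for Mns1 at 6 weeks (0.27, adjusted p = 0.130, limma). Tekt4, a tektin filament protein, read -1.31, -1.31 and -1.41 against -0.90, -1.05 and -1.07 (0.33 ± 0.10, adjusted p = 0.0261, limma). Wdr78, an intermediate chain of axonemal dynein, read 0.26, 0.30 and 0.20 against 0.47, 0.48 and 0.41 (0.20 ± 0.07, adjusted p = 0.0402, limma). The shift of Tppp3 amounts to 1.60-fold.

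Among the genes lower in the 12-week knockout, Kif27 had the widest shift, with -4.14, -2.99 and -4.08 in wild type and -5.07, -4.74 and -4.48 in the knockout (-1.03 ± 0.30, adjusted p = 0.0251, limma). Wild-type replicate 2 stood far above the rest. The change was no longer called without it (-0.66) or without knockout replicate 1 (-0.88) or 2 (-1.04). Efhb, a protein of the doublets, read -4.17, -4.22 and -4.18 against -5.10, -4.79 and -4.97 (-0.76 ± 0.17, adjusted p = 0.0104, limma). Efcab1, which takes part in docking dynein arms, read -1.98, -1.97 and -1.62 against -2.52, -2.47 and -2.45 (-0.63 ± 0.12, adjusted p = 0.00718, limma). The groups did not overlap in any of these 3. Rsph4a, a radial spoke head protein, read -1.80, -2.28 and -2.09 against -2.74, -2.54 and -2.46 (-0.53 ± 0.16, adjusted p = 0.0305, limma). Rfx3, an RFX factor of ciliogenesis, read -2.78, -2.56 and -2.59 against -3.32, -3.04 and -2.93 (-0.46 ± 0.14, adjusted p = 0.0328, limma). Enkur, an adaptor protein inside the doublets, read -1.90, -1.66 and -1.64 against -2.01, -2.13 and -2.25 (-0.39 ± 0.10, adjusted p = 0.0159, limma). Fank1 and the radial spoke protein Lrrc23 were lower in the knockout by 0.39 and 0.24 (adjusted p = 0.0450 and 0.0496, limma). The groups overlapped for Fank1 alone among the 12 genes.

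Other probes of the same genes were read at 12 weeks too. For Efcab1 the 3 probes gave -0.63, -0.20 and -1.04, and for Rfx3 -0.46, -0.21 and -0.98, all downward. For Fank1 the second probe gave -0.82. For Rsph4a the second probe turned the sign, at 0.20. Of the 12 calls, those of Efcab1, Efhb, Mns1 and Tppp3 were kept whichever of the 6 arrays was left out. The other 8 were each lost in 3 or more of the 6 fits, and that of Wdr78 in all 6. The fits without wild-type replicates 1, 2 and 3 called 9, 5 and 6 genes. Those without knockout replicates 1, 2 and 3 called 5, 8 and 8. The share of all genes called in these fits is not given, so the counts are not a result about the 41 genes. With slide as a block none of the 41 was called, against 0.113% of all genes, and the estimates shrank to 0.10 for Tppp3, 0.12 for Mns1, -0.31 for Efcab1 and -0.58 for Efhb.

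The values of the single 6-week knockout array on slide 2 are given for 3 of these genes, picked after they were seen. For Tppp3 that array read 2.0, near the 12-week knockout arrays, while the slide 1 arrays of its group read 1.38 and 1.46. For Efcab1 it read -2.39 and the others -1.96 and -2.18. For Mns1 it read -1.82 beside -2.0 and -2.06. In each of these 3 genes it lay nearer to the 12-week knockout group than its fellow replicates did. Among the genes called with age in the knockout, described below, it lay between the others for Dnali1 alone (-2.26). For Tmem212, Wdr78 and Tekt1 it read -1.53, 0.10 and -0.45, the highest of its group and so nearest to the 12-week knockout arrays.

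**Figure D3:**
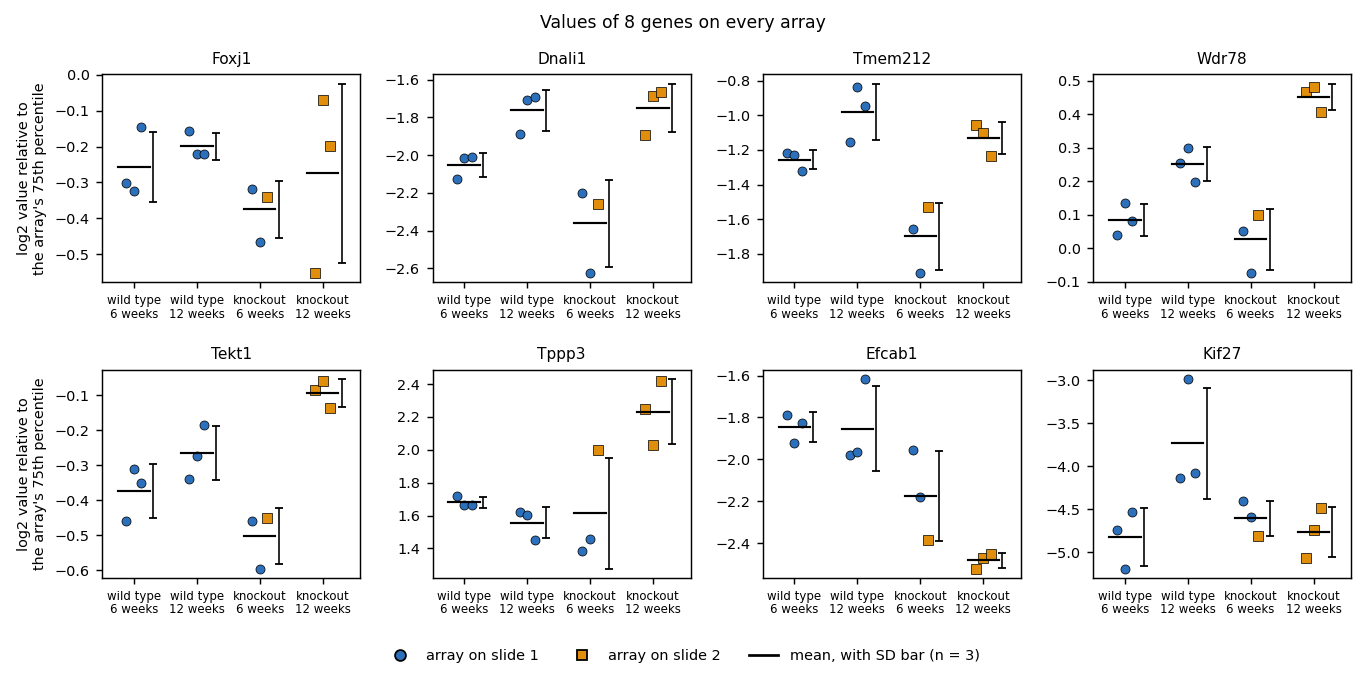
Each panel is 1 gene, with the log2 value relative to the array's 75th percentile on the vertical axis and the 4 groups along the bottom. Circles are arrays of slide 1, squares are arrays of slide 2, and lines and bars are the mean and SD of 3 arrays. Dnali1, Tmem212, Wdr78 and Tekt1 are lowest in the 6-week knockout, and for Tppp3 and Efcab1 the slide 2 array of that group lies toward the 12-week knockout.

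The comparison with age in wild type lies wholly on slide 1 but is partly mixed with slide column. In it no gene of the 41 changed after adjustment, against 0.638% of all genes, 0.430% higher and 0.208% lower (limma). An unadjusted p under 0.05 was seen for 9, beside 3895 of all 26495 genes. The changes leaned up, with 27 positive and 14 negative and a median of 0.06 against 0.00 over all genes. The groups lay apart for 14 genes, against 24.7% of all genes, and 10 of these were higher at 12 weeks, against 12.6%. Lrrc23 read -1.62, -1.58 and -1.53 at 6 weeks and -1.36, -1.27 and -1.03 at 12 weeks (0.36, adjusted p = 0.0915, limma). Kif27 gave 1.08 (95% interval 0.43 to 1.74, adjusted p = 0.133, limma), with wild-type replicate 2 at 12 weeks alone at -2.99. Kif9 is described above.

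With age in the knockout, 4 genes rose and none fell: Dnali1, Tmem212, Wdr78 and Tekt1. This was 9.76% of the 41 genes, beside 1.09% of all genes called higher, 0.913% called lower and 2.01% in all. Dnali1, a light intermediate chain of the inner dynein arms (probe at chr4:124732591-124732650, mm9), read -2.20, -2.62 and -2.26 at 6 weeks and -1.89, -1.69 and -1.66 at 12 weeks. It rose by 0.61 ± 0.12, or 1.53-fold (adjusted p = 0.0383, limma). Tmem212 (chr3:27765044-27765103, mm9) read -1.66, -1.91 and -1.53 and then -1.05, -1.10 and -1.23, a rise of 0.57 ± 0.11 (adjusted p = 0.0402, limma). In both genes every 12-week array lay above every 6-week array.

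Wdr78 (chr4:102710707-102710766, mm9) read 0.05, -0.07 and 0.10 at 6 weeks and 0.47, 0.48 and 0.41 at 12 weeks, a rise of 0.42 ± 0.07 (adjusted p = 0.0316, limma). Tekt1, a tektin (chr11:72158231-72158290, mm9), read -0.46, -0.59 and -0.45 and then -0.08, -0.06 and -0.14, a rise of 0.41 ± 0.07 (adjusted p = 0.0344, limma). Its second probe gave 0.35 (adjusted p = 0.0548, limma fit over all probes). The groups lay apart for both, and replicate 2 at 6 weeks was the lowest array of its group for all 4 genes. The groups lay apart upward for 13 of the 41 genes and downward for 3, against 11.8% and 14.5% of all genes (26.3% in either direction). The median change was 0.12, beside -0.01 over all genes. The highest estimate, 0.68 for the adenylate kinase Ak7, did not pass (95% interval 0.11 to 1.24, adjusted p = 0.132, limma), and its probe was above background on 1 of the 3 knockout arrays at 6 weeks.

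With slide as a block the estimates were 0.51, 0.40, 0.35 and 0.36 for Dnali1, Tmem212, Wdr78 and Tekt1, and none was called (adjusted p from 0.309 to 0.507, limma), beside 0.0717% of all genes. None was called without knockout replicate 1 or 2 at 6 weeks or without knockout replicate 1 or 3 at 12 weeks, and Wdr78 alone was called without replicate 2 at 12 weeks. Without replicate 3 at 6 weeks, the array on slide 2, 9 genes were called higher and 3 lower, when 16.2% and 11.8% of all genes were. The direction of the 4 changes was upward in each of these fits.

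The age comparisons of the 2 genotypes share no array, so their directions can be set side by side. In the knockout every 12-week array was on slide 2 and the 6-week group lay on both slides, so age and slide are partly mixed there. In wild type age and slide column are partly mixed. The counts that follow were not repeated with slide or slide column as a block. Of the 41 genes, 21 (51.2%) were higher at 12 weeks in both genotypes, 6 (14.6%) lower in both and 14 of opposite sign, beside 24.9%, 25.4% and 49.6% of all genes. In 6 genes the 12-week arrays lay above all 6-week arrays in wild type and again in the knockout, which was 14.6% of the genes beside 2.43% of all genes. These were Dnali1, Lrrc23, Mns1, Rsph1, Tmem212 and Wdr78. Rsph1, a radial spoke head protein, changed by 0.18 in wild type and 0.17 in the knockout, and neither passed the test. Its second probe gave 0.05 in wild type, where the groups overlapped, and 0.31 in the knockout. No gene of the 41 was apart downward in both, beside 1.98% of all genes. Of the lists most like them, 32 of 82 other motile cilia genes and 28 of 32 choroid plexus markers were higher in both, and 5 and 4 were apart upward in both.

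**Figure D4:**
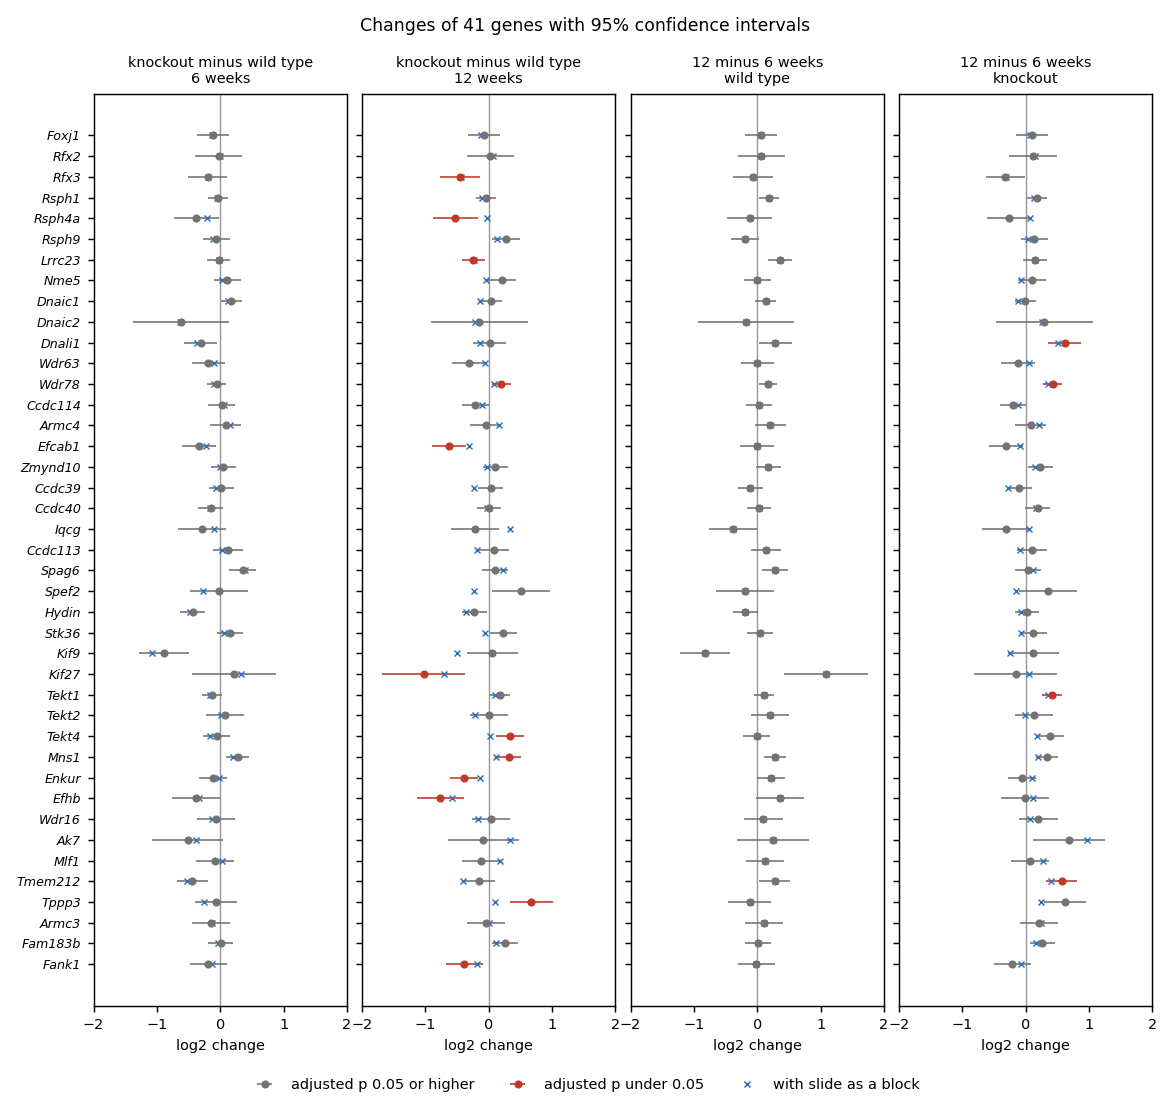
Each row is 1 of the 41 genes and each panel 1 comparison, with the log2 change on the horizontal axis. Points and bars are limma estimates with 95% confidence intervals, in red where the adjusted p was under 0.05, and crosses are the estimates with slide as a block. The 12 red points at 12 weeks lie on both sides of 0, the 4 red points for age in the knockout lie above it, and the other panels have none.

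The difference of the genotype effect between 12 and 6 weeks was called for none of the 41 genes, beside 0.189% of all genes (0.0453% higher and 0.143% lower, limma). Of the 41, 7 had an unadjusted p under 0.05, beside 5189 of all 26495 genes. The change with age was therefore not shown to differ between genotypes for any of them. For Kif9 the difference was 0.94 (95% interval 0.38 to 1.51, adjusted p = 0.134, limma) and for Tppp3 0.74 (0.26 to 1.22, adjusted p = 0.149, limma). Without knockout replicate 3 at 6 weeks 5 genes passed (Kif9, Spef2, Tekt4, Tppp3 and Wdr78), when 10.3% of all genes were called higher and 7.55% lower.

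The counts by role at 12 weeks stand beside 33.0% of all genes called, and those with age in the knockout beside 2.01%, and with so few genes a role they describe the members and not the roles. Here higher or lower at 12 weeks means in the knockout relative to wild type. By role, none of the 3 transcription factors was called at 6 weeks, with estimates from -0.20 to -0.02, and Rfx3 alone was lower at 12 weeks. Among the 5 measured radial spoke genes, 2 were lower at 12 weeks (Rsph4a and Lrrc23), and the spoke head protein Rsph9 gave 0.27 without passing (adjusted p = 0.0538, limma). Of the 5 measured dynein arm genes, 2 rose with age in the knockout and 1 was higher at 12 weeks. Dnaic2, an outer arm intermediate chain, read -0.52 on wild-type replicate 1 at 6 weeks and between -2.28 and -1.70 on the other 11 arrays. Of the 4 docking and assembly genes, Efcab1 was lower at 12 weeks and none was called elsewhere. Of 4 ruler and nexin link genes, which set the repeat and the links of the doublets, none was called in any comparison, with estimates from -0.38 to 0.19. Of the 6 central pair genes 1 was lower at 12 weeks. Spef2, a projection protein, read 4.54 to 4.89 in wild type and 5.13 to 5.55 in the knockout at 12 weeks (0.52, adjusted p = 0.0778, limma). Of the 7 doublet genes 2 were higher and 2 lower at 12 weeks, and Tekt1 rose with age in the knockout. Of the 7 remaining genes, Tppp3 was higher and Fank1 lower at 12 weeks, and Tmem212 rose with age in the knockout.

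Of the heavy chains, 3 were on the array under older names. Dnahc9, the older name of Dnah9, an outer arm heavy chain, read -3.10, -3.67 and -4.01 in wild type and -4.20, -5.21 and -4.44 in the knockout at 12 weeks, a difference of -1.03 ± 0.30 (adjusted p = 0.0271, limma). With slide as a block it was -0.72 and not called, and it was lost in 3 of 6 fits that left out an array. Dnahc5 and Dnahc11 changed by -0.27 and -0.19 in that comparison, and neither passed in any comparison.

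Other motile cilia genes, 82 measured of 103 listed, were read in the same comparisons. None was called at 6 weeks, 10 were higher and 9 lower at 12 weeks, 1 was lower with age in wild type and 3 were higher with age in the knockout. Of all genes 18.5% were higher and 14.5% lower at 12 weeks, 0.208% lower with age in wild type and 1.09% higher with age in the knockout, and the 12-week counts are not a result about these genes. Their medians were -0.06, 0.02, 0.04 and 0.14 in that order. Dynlrb2, a dynein light chain, and Odf3b rose by 0.51 and 0.51 with age in the knockout (adjusted p = 0.0405 and 0.0403, limma), and 4930451C15Rik by 0.61 (adjusted p = 0.0463). At 12 weeks Spata18 and 1700007G11Rik were higher by 0.69 and 0.64, and Lrriq1 and Dnalc1 lower, at -0.83 and -0.74. Under the slide block these were 0.26, 0.79, -1.02 and -0.05, and none of the 82 was called at 12 weeks or with age in the knockout. The 3 rises with age were each lost in 5 of 6 fits that left out an array.

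Lists of neighbouring machinery were read likewise. Of 39 intraflagellar transport and Bardet-Biedl genes, which build cilia of every kind, 8 were higher and 8 lower at 12 weeks, beside 18.5% and 14.5% of all genes, so these counts too are not a result about the list. With age in the knockout 15 were positive and 24 negative, beside 13020 and 13475 of all genes, and 1 was called (Ttc30a1, 0.38). At 6 weeks Dync2h1, the motor of retrograde transport, was called lower (-0.44, adjusted p = 0.0289, limma), and the call was lost in 5 of 6 fits that left out an array (adjusted p up to 0.0987). Ift46 was higher by 0.43 with the probe used, while a second probe gave -2.01. Ift46 lies 5.79 Mb from the Il18 probe. At 12 weeks Wdr19 was called at -1.13, Ift27 at 0.48 and Rabl5 at 0.46. Under the slide block these were -0.37, 0.08 and 0.33, and no gene of the list was called at 12 weeks. Of 19 genes of multiciliated cell specification, 1 was higher and 4 lower at 12 weeks, beside 18.5% and 14.5% of all genes. The lower ones were Ccdc78 (-1.07), Plk4 (-0.60), Ccno (-0.44) and Rfx7 (-0.42). These counts are not a result about the list, and none of its genes was called in the other comparisons. None of the 19 was called at 12 weeks with slide as a block. Of 26 ependymal markers outside the axoneme, 6 were higher and 1 lower at 12 weeks, beside 18.5% and 14.5% of all genes. Those with the largest changes were Mt3 (0.58), Gja1 (-0.47, a gene also on the list of astrocyte markers), Numb (0.39) and Pltp (0.38). With slide as a block these were 0.30, -0.07, -0.01 and -0.10, and no gene of the list was called. With age in wild type Mt3 was lower (-0.59, adjusted p = 0.0190, limma), also with slide as a block (adjusted p = 0.00446), but the call was lost in each of 6 fits that left out an array (adjusted p up to 0.0764).

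Markers of the choroid plexus, the secretory epithelium that is also ciliated and lies beside the ependyma, were followed beside the 41 genes. Of 32 markers measured, 26 were negative at 6 weeks with a median of -0.29, beside 11266 of all 26495 genes. With age in the knockout 30 were positive with a median of 0.33, beside 13020 of all genes. Aqp1, a water channel, Cldn2, a claudin, and Wfdc2 rose by 0.74, 0.68 and 0.63 with age in the knockout (adjusted p = 0.0499, 0.0479 and 0.0437, limma). Of all genes 1.09% were called higher in that comparison. Each of these calls was lost in 4 or 5 of 6 fits that left out an array. With slide as a block the medians at 6 weeks and with age in the knockout were -0.36 and 0.17. None of the 32 was called in any comparison under that block. In wild type 29 of 32 were positive with age, beside 13345 of all genes, with a median of 0.19 and none called. At 12 weeks 1 was higher (Car12, 0.34) and 1 lower (Cldn1, -1.04), beside 18.5% and 14.5% of all genes. Per array, the median deviation of this list from its 12-array mean was -0.62 on knockout replicate 2 at 6 weeks, and between -0.13 and 0.22 on the other 11. By group it ranged from -0.09 to 0.12 and from 0.09 to 0.22 in wild type at 6 and 12 weeks, and from -0.62 to -0.05 and from 0.06 to 0.18 in the knockout. That array was also the lowest for the 41 genes, at a median of -0.10, in a range up to 0.14. The part of choroid plexus RNA in the changes of the 41 genes was not tested.

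Other cell types that lie beside the ventricles were counted as well. With age in the knockout, of 16 neuroblast and proliferation markers 2 fell and none rose. Of 16 meningeal fibroblast markers 2 rose and none fell, and none of 18 tanycyte or 20 astrocyte markers was called. Of all genes 1.09% were called higher and 0.913% lower. With slide as a block none of these 4 lists had a gene called with age in the knockout. The medians of the neuroblast, meningeal, tanycyte and astrocyte lists were -0.20, 0.30, 0.07 and 0.10, beside -0.01 over all genes. At 6 weeks none of these 4 lists had a gene called lower, and 1 tanycyte marker was called higher, beside 0.377% and 0.547% of all genes.

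**Figure D5:**
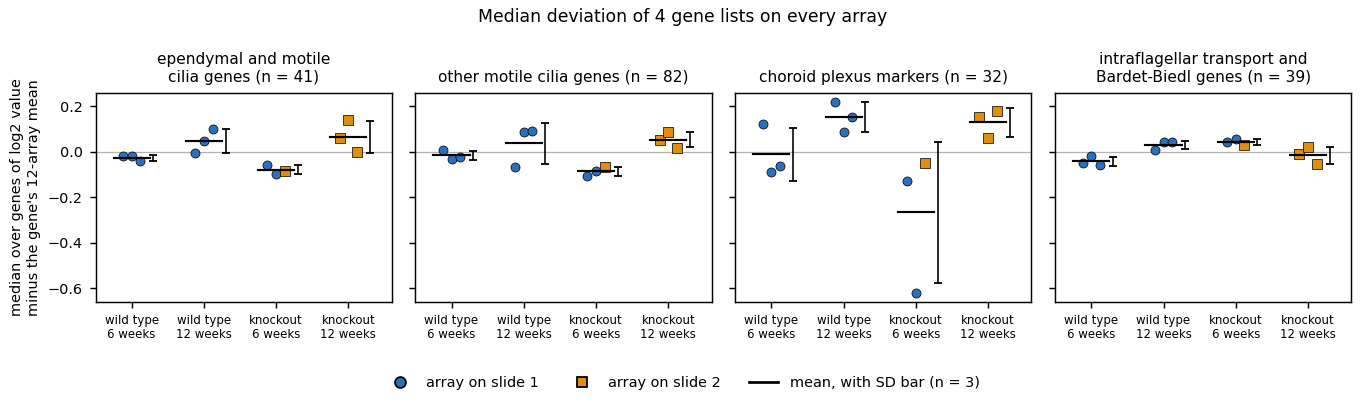
Each panel is 1 gene list, with the number of genes in its title, and each point is 1 array. The vertical axis is the median over genes of the log2 value minus that gene's mean over 12 arrays, and lines and bars are the mean and SD of 3 arrays. The 41 genes stay between -0.10 and 0.14, and the choroid plexus markers have 1 array at -0.62 in the 6-week knockout.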

How the data were processed

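Fluorescence was measured on 12 arrays, and the authors deposited scan files with fluorescence intensity in their signal columns (per the file headers), and the submitters' processing notes name Feature Extraction 10.7.3.1 of Agilent. Further deposited columns are other values, 0 or 1 per the file headers, that mark spots above background, saturated or outlying. A deposited table of intensity values differed from the processed signal by at most 0.498%. Probe positions are on build mm9, per the file headers.

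From these, log2 of the processed signal minus the log2 75th percentile of the array was taken, outlier spots (107 to 220 per array) were left out, and spots of a probe were averaged. No spot was saturated. Keeping probes well above background on all 3 arrays of a group left 37198 probes and 26495 genes. Groups come from the labels. The test was that of limma 3.58.1 under R 4.3.3 (lmFit, eBayes, 1 mean per group over 12 arrays, 8 residual degrees of freedom, two-sided) in 5 comparisons, adjusted by Benjamini-Hochberg over all genes, and called at an adjusted p under 0.05. Errors after ± are standard errors. The fit was tested on simulated data. Arrays are limited in precision by their number. To look for pairing, each gene's deviations from its group mean were correlated between arrays of different groups. For same-numbered arrays r lay between -0.20 and 0.11 (over 0.1 in 2 of 18 pairs). For the other pairs it lay between -0.15 and 0.18 (over 0.1 in 6 of 36). No pairing by number was seen, but so few arrays cannot exclude one.

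The 47 genes, the other lists and the tests were chosen with earlier results of these data known. Foxj1 and all called members are named, with values per array for up to 6 rises and 6 falls; up to 4 called genes of the cilia, ependymal and choroid plexus lists are named, and further genes were picked after their values were seen. Alternatives were slide, slide column and replicate blocks, other scalings, backgrounds and filters, other probes, other fits and leaving out each array.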

Additional observations from a re-analysis of the deposited data

Results flagged for a closer look

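For 1700007G11Rik, one of the other motile cilia genes, the genotype effect differed between ages by the test of the difference itself. The knockout minus wild type difference at 12 weeks exceeded that at 6 weeks by 0.82 on the log2 scale (limma, adjusted p = 0.0488). The call was lost in 11 of the 12 fits that each left out 1 array, with adjusted p up to 0.125, and also with slide as a block (0.92, adjusted p = 0.110) and with a replicate block (adjusted p = 0.0983). In wild type the gene fell by 0.84 with age (adjusted p = 0.0047), and it was 0.64 higher in the 12-week knockout. None of the 41 genes was singled out by this test.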

How the results depend on the processing

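The median change of the 41 genes moved by more than the spread between arrays (SD 0.05) at 6 weeks with slide column as a block (-0.20) and median scaling (0.0295), at 12 weeks with slide (-0.10) or slide column (-0.0485) as a block, median scaling (0.12) and quantile normalization (0.0843), and in wild type with the second probe (0.12). With median scaling the median of all genes moved too, from 0.04 to 0.13 at 6 weeks and from 0.02 to 0.14 at 12 weeks. The 41 genes thus moved with all genes there. The cause of the other shifts was not tested. At 12 weeks a fit within slides could not be made, since each slide holds 1 genotype.

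Of the counts of called genes, that at 6 weeks went from 0 to 1 with slide as a fixed or random block, the second probe, the mean of all probes, and eBayes with trend, to 2 with only probes above background on 12 arrays, and to 3 with normexp. At 12 weeks it went from 12 to 0 with either slide block, to 6 with quantile normalization and to 7 with no filter on dim probes. With age in wild type it was 1 with either slide block, the second probe and eBayes with trend. With age in the knockout it went from 4 to 0 with either slide block, within slides, with no filter on dim probes and with only the groups compared, and to 7 with eBayes with trend. A replicate block left 0 at 6 weeks, 8 at 12 weeks, 0 with age in wild type, 0 with age in the knockout and 0 for the difference of effects. Pairing by number was neither seen nor excluded. Leaving out 1 array gave 0 to 1, 5 to 9, 0 to 1, 0 to 12 and 0 to 5 called genes in the same order, and medians of -0.11 to -0.05, -0.053 to 0.0238, 0.06 to 0.10 and 0.0771 to 0.18.

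Signs that turned were those of Foxj1 at 12 weeks with median scaling (0.0445), and of its difference of effects with slide column as a block (-0.0007), and when 1 array was left out (-0.1766 to 0.0642 at 12 weeks, -0.0012 to 0.2395 with age in the knockout, -0.059 to 0.18 for the difference). Others were Rsph4a with its second probe (0.20), Plk4 with normexp (0.0747), Ift46 with its second probe (-2.01 and -2.33) or the mean of its probes (-0.79 and -0.92) at 6 and 12 weeks, and Numb and Pltp with slide as a block (-0.0079 and -0.10). Over 25 results for single members, 357 alternatives kept direction and call, 138 lost the call, 17 gained it and 8 turned sign. Signal near background limits Ak7 and Rfx2. Kif27 and Efhb were above background on all 12 arrays, but their lowest values, -5.19 and -5.16, lay within the range of Rfx2.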
